A study of Mus musculus with 12 samples.

Results

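The genes described here encode the nuclear subunits of the 5 oxidative phosphorylation complexes. They were taken as the protein-coding genes whose mouse symbol begins with Nduf followed by a, b, c, s or v and a digit, with Uqcr, with Cox4 to Cox8 or with Atp5, together with Sdha, Sdhb, Sdhc and Sdhd, and they had to reach 20 counts summed over the 12 libraries. Of 97 gene identifiers with such a symbol, 79 met the rule, out of 54232 genes in the count table. Complex I is represented by 36 genes, complex II by 4, complex III by 8, complex IV by 14 and complex V by 17. Another 12 identifiers were pseudogenes or otherwise not protein-coding, and 6 had too few counts: Ndufa4l2 had 9 counts, while Cox6b2, Cox7b2, Cox8b, Cox8c and a second Atp5o identifier had 0. The rule goes by name only, so it takes in Cox7a2l, a factor of respiratory supercomplexes, and Atp5s, known as coupling factor B, neither of which is a core structural subunit, and it places Ndufa4 with complex I although it is also described as a subunit of complex IV.

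RNA was sequenced from RAW 264.7 cells, an established mouse macrophage line. The libraries fall into 6 groups of 2: wild type untreated, wild type after 3 h with 100 ng/ml lipopolysaccharide (LPS, a bacterial cell wall component sensed by Toll-like receptor 4), Ing4-/- untreated, Ing4-/- after the same LPS treatment, Socs1-/- untreated, and Socs1-/- after the same LPS treatment. All groups share the cell line and its culture medium, and the labels add no further allele or agent. The sources used here do not say how the genes were disrupted or whether a genotype stands for 1 clone or several. The treatment text in the labels names HEK293T cells, whereas the cell line and source labels name RAW 264.7. No label ties the paired libraries to different cultures, so the p-values measure the spread between these libraries, which may be technical. In bulk RNA of this kind, fewer cells that express a gene and less RNA per cell cannot be told apart.

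The targeted genes were checked first. Ing4, a subunit of histone acetyltransferase complexes, had 10, 5, 6 and 2 counts in the wild-type libraries (2 untreated, then 2 LPS), 6, 29, 6 and 10 in those labelled Ing4-/-, and 19, 28, 14 and 3 in those labelled Socs1-/-. It was thus barely detected in any genotype, and its counts do not separate the libraries labelled Ing4-/- from the others. Socs1, an inhibitor of cytokine signalling, had 4 to 12 counts in the untreated libraries. After LPS it had 169 and 179 counts in wild type, 185 and 148 in the libraries labelled Ing4-/-, and 67 and 127 in those labelled Socs1-/-, so its transcript was present there too. The genotypes are therefore given below as labelled. Library totals ran from 17250815 to 24377950 counts. CPM are counts scaled to library size and TMM factor, except that sums of markers were scaled to library size alone. The 10 macrophage markers summed to between 11426 and 24395 CPM. Of the fibroblast and epithelial markers 7 of 8 were at 0 throughout, and 5 of 8 lymphocyte markers were at 0 with the sum at most 0.406 CPM. The first LPS-treated library labelled Socs1-/- stood apart from the other LPS libraries, with a TMM scaling factor of 1.01 where the others had 0.85 to 0.89. The counts of called members that rest on it are also given without it.

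Oxidative phosphorylation passes electrons from NADH through complex I, and from succinate through complex II, to ubiquinone, then through complex III and cytochrome c to oxygen at complex IV. Complexes I, III and IV pump protons across the inner mitochondrial membrane, and complex V, the ATP synthase, uses the returning protons to make ATP. Complex II is also the succinate dehydrogenase of the tricarboxylic acid cycle, and in macrophages activated by LPS succinate oxidation and the repurposing of mitochondria away from ATP production are well-known themes. The transcripts of these genes were among the more abundant ones. The members' median abundance was 6.60 on the log2 CPM scale, against 4.81 for all 12771 tested genes, and the 79 genes together took between 0.887% and 1.4% of a library's counts.

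The 3 sequences below are shown because Sdha, which encodes the catalytic flavoprotein subunit of complex II, carried the largest difference from wild type among these genes (log2 -0.97) while Sdhb and Sdhd encode its iron-sulphur and membrane anchor partners. Each lies wholly upstream of the gene's start in both RefSeq and GENCODE (mouse build GRCm38.p6) and is written 5′ to 3′ on the gene's own strand. They hold 110, 82 and 150 bases, and most of that of Sdha lies inside the annotated span of Ccdc127, a gene on the opposite strand. Capitals mark matches to the NRF1 letters (GCGC, any 2 bases, GCGC) or, in Sdhb, the SP1 letters GGGCGG on either strand.

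Sdha, chr13:74350281-74350390, minus strand: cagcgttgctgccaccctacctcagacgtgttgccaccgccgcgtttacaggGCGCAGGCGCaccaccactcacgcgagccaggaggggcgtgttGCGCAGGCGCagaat

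Sdhb, chr4:140961121-140961202, plus strand: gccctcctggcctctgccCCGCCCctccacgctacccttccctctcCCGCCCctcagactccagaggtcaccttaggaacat

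Sdhd, chr9:50603850-50603999, minus strand: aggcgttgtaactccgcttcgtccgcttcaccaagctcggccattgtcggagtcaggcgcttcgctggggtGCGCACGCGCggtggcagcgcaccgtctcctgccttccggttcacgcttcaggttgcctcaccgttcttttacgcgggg

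The Sdha stretch holds 2 matches to the NRF1 letters and the Sdhd stretch 1, and the longer window of 300 bases holds 3 for Sdha. NRF1 is a transcription factor of nuclear genes for mitochondrial proteins. In windows from 250 bases before to 50 after the start, 65 of the 79 genes had a RefSeq entry, with 70 windows in all. Both strands were searched and each motif was counted on its own, whether or not it overlapped another. NRF1 letters were in 27.1% of the members' windows, against 6.23% of 32851 windows of all genes and 13.2% of 12008 windows of tested genes. YY1 letters AAGATGGC were in 14.3% of the members' windows, against 4.71% for tested genes, and the oestrogen-related receptor letters AAGGTCA in 11.4% against 3.25%. The ETS letters CCGGAAGT, which GABPA reads, were in 7.14% against 8.59%, and SP1 letters GGGCGG in 38.6% against 61.5%. The TATA letters TATAAA were in 8.57% of the members' windows and 7.27% of those of tested genes. A letter match is a description of the window and shows no binding. Windows with 3 or more NRF1 matches were 2 of the members' 70 (2.86%), beside 0.292% of the windows of all genes. This share was not computed for windows of tested genes.

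Levels were compared between genes per kilobase of the longest annotated transcript, averaged over the 12 libraries (CPM per kb). Atp5b, the catalytic beta subunit of ATP synthase, was the highest at 910 CPM per kb. The highest gene of complex IV was Cox4i1 at 547, of complex III Uqcrh, the hinge protein, at 321, of complex II the membrane anchor Sdhd at 181, and of complex I Ndufa4 at 161. The lowest were Atp5l, the g subunit of ATP synthase, at 0.45, Cox4i2 at 0.587, Ndufb2 at 4.03, Sdhc, the other membrane anchor, at 49.4, and the small complex III subunit Uqcrq at 63.6. This order depends on the length used. Per kilobase of coding length, Cox6b1 at 907 passed Cox4i1 at 825, and the lowest genes of complexes I, II, III and V became Ndufb4, Sdha, Uqcrfs1 and Atp5s. For Atp5l the longest transcript model has 6310 bases and the principal one 544. Atp5l is also uncertain because 76% of the 75-base stretches of its longest coding transcript occur in transcripts of other genes, and the same holds in part for Atp5o (39.1%), Atp5h (36.5%), Ndufb4 (35.2%), Ndufb6 (31.3%), Uqcrb (29.1%), Ndufs3 (28.2%), Atp5f1 (27.9%), Ndufa13 (25.6%) and Cox7c (25%). The other members that share any have at most 24.1%, and 45 share none. On the genome 12 members overlap another gene on the same strand and 28 one on the opposite strand, and whether the counting used strand is not stated.

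Several subunits have a paralog used mainly in muscle, heart, lung or testis, and in these macrophages the widely used copy dominated. Cox4i1, which takes part in the assembly and regulation of complex IV, lay between 341 and 525 CPM. Cox4i2, its copy known from lung, lay between 0.0996 and 0.664 CPM, with 2 to 15 counts in a library. Cox6a1 lay between 123 and 188 CPM and its striated muscle copy Cox6a2 between 0.221 and 0.964 CPM (4 to 22 counts). Cox7a2 lay between 139 and 200 CPM and its muscle copy Cox7a1 between 1.34 and 4.36 CPM (25 to 86 counts). Markers of muscle and heart summed to at most 0.815 CPM. The testis copies Cox6b2, Cox7b2 and Cox8c and the muscle copy Cox8b had 0 counts in all 12 libraries, beside 178 to 287 CPM for Cox6b1, 179 to 251 for Cox7b and 148 to 211 for Cox8a. Ndufa4l2, a hypoxia-induced relative of Ndufa4, had 0 to 3 counts in a library while Ndufa4 had 165 to 229 CPM. Of the 3 genes for the identical mature c subunit of ATP synthase, Atp5g3 had 235 to 367 CPM, Atp5g1 68.5 to 110 and Atp5g2 24.7 to 41.1, with no overlap between them.

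**Figure D1:**
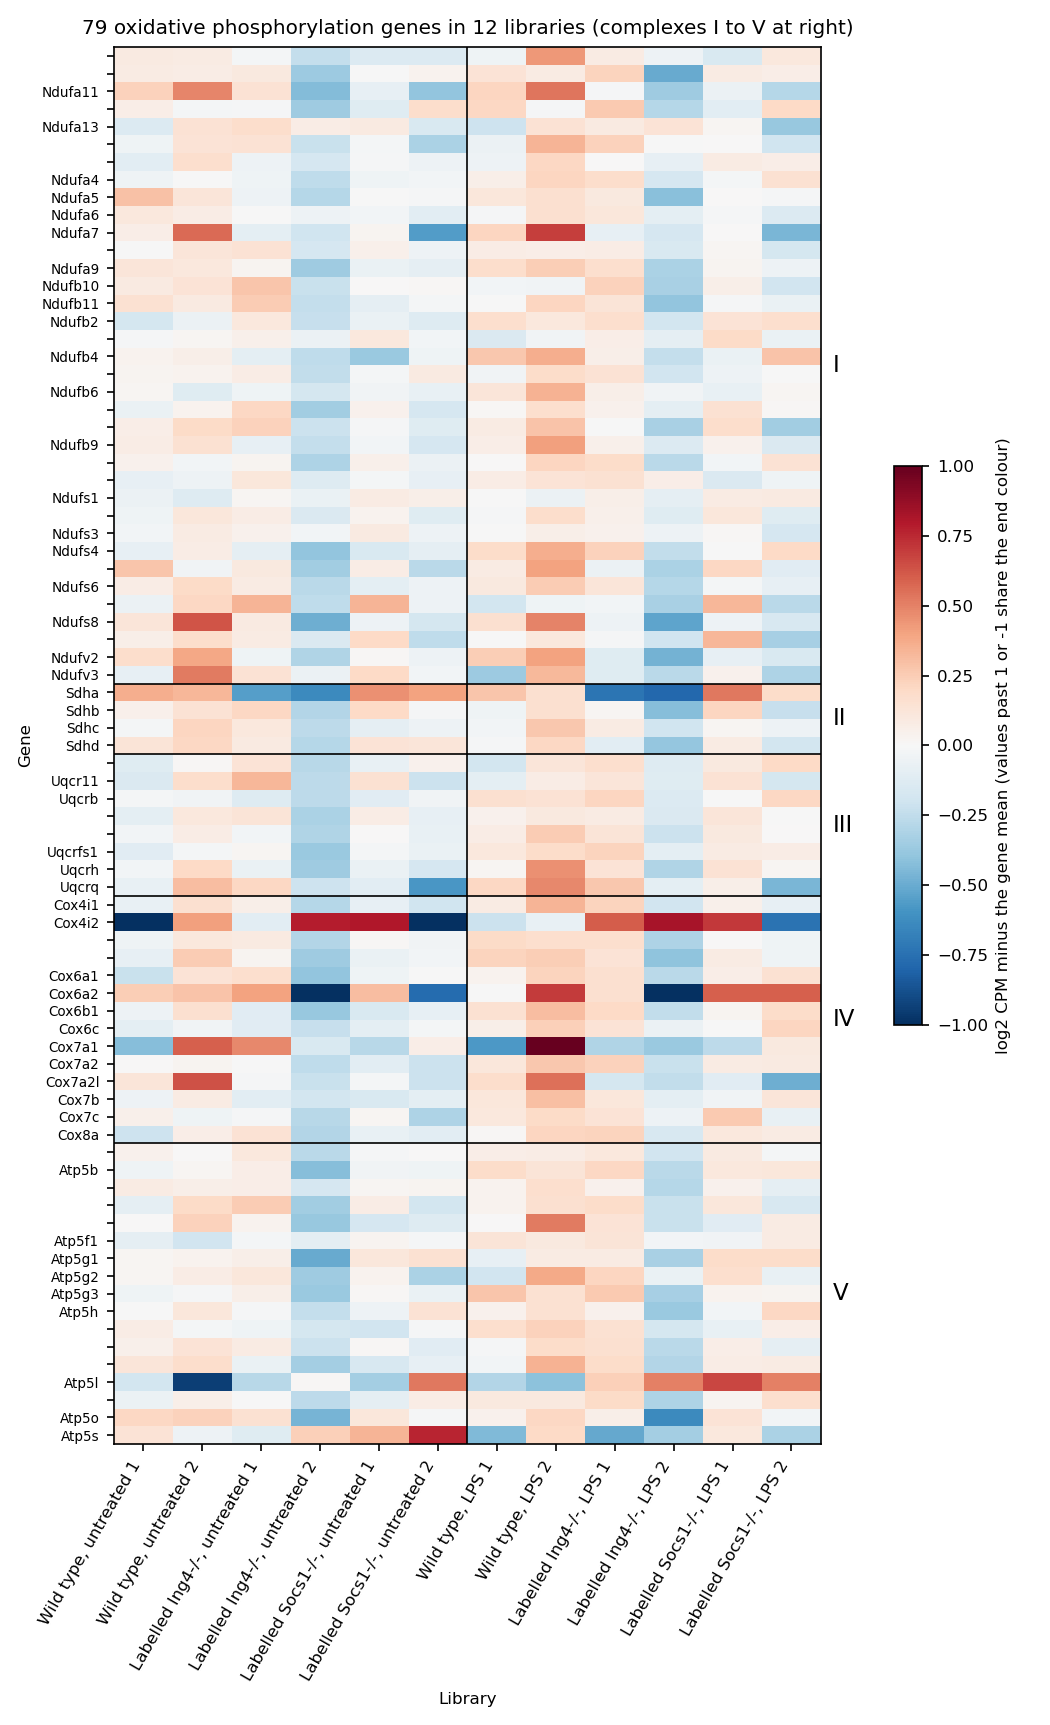
Level of each of the 79 genes (rows, grouped by complex I to V, labelled where named in the text) in the 12 libraries (columns, untreated left, LPS right), as log2 CPM minus the gene's mean over all libraries. The second untreated and second LPS library labelled Ing4-/- are blue in most rows, Sdha is blue in all 4 libraries with that label, and the rows with few counts (Cox4i2, Cox6a2, Cox7a1, Atp5l, Atp5s) vary most.

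The first question was whether 3 h of LPS changed these transcripts. None of the 79 passed the threshold of edgeR's quasi-likelihood test (Benjamini-Hochberg adjusted p at most 0.05 over all 12771 tested genes) in wild type, where 2.89% of all tested genes did, in the libraries labelled Ing4-/-, where 8.02% did, or in those labelled Socs1-/-, where 1.98% did. In each of these 3 responses 0 members had an unadjusted p under 0.05, and DESeq2 and limma-voom also called 0. Of all 12771 tested genes, 1499 were higher and 1387 lower at that bound in wild type. Under the Ing4-/- label 1957 were higher and 1646 lower, and under the Socs1-/- label 1375 and 790. The shares of all tested genes called by DESeq2 and limma-voom in these 3 responses are not given here. In the LPS response averaged over the 3 genotypes, which uses all 12 libraries, edgeR called 33.2% of all tested genes and again 0 of the 79. There 3 members had an unadjusted p under 0.05 and all 3 were higher (Cox6c, Ndufs4 and Uqcrb). At that bound 2946 of all tested genes were higher and 2745 lower. DESeq2, which called 31.6% of all tested genes, and limma-voom, which called 32.5%, called 0 members. Without the first LPS-treated library labelled Socs1-/-, edgeR called 0 members and 41.7% of all tested genes in the averaged response, and 0 members in the response under the Socs1-/- label, whose member median then went from 0.05 to 0.02.

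The averaged changes were small in both directions. Their median over the 79 genes was 0.08 on the log2 scale, against 0.00 for all tested genes. They ran from -0.43 for Atp5s to 0.37 for Atp5l, with 57 positive and 22 negative. The median was 0.00 without the first LPS-treated library labelled Ing4-/- and 0.14 without the first untreated one, the extremes on leaving out 1 library. The 95% interval of the change lay inside 2-fold for 77 of 79 members (97.5%) and inside 1.5-fold for 74 (93.7%). Among all tested genes, which are less abundant on the median, these shares were 63.6% and 35.4%. The 2 members whose interval reached past 2-fold were the low-count Cox4i2 and Cox6a2.

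The untreated and LPS libraries with the same number within a genotype deviated together, so the averaged response was also fitted with that number as a block. The median stayed at 0.08, and 11 members were then called by edgeR, beside 51.7% of all tested genes. The 10 higher ones were Uqcrfs1, Uqcrb, Atp5b, Cox6c, Cox8a, Cox6b1, Cox7a2, Ndufs4, Cox7c and Cox7b, in a fit that called 26.6% of all tested genes higher. Ndufv3 was the 1 called lower, where 25.1% of all tested genes were. These changes ran from 0.16 to 0.24 for the higher genes and were -0.23 for Ndufv3. Both shares of members lie under those of all tested genes.

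**Figure D2:**
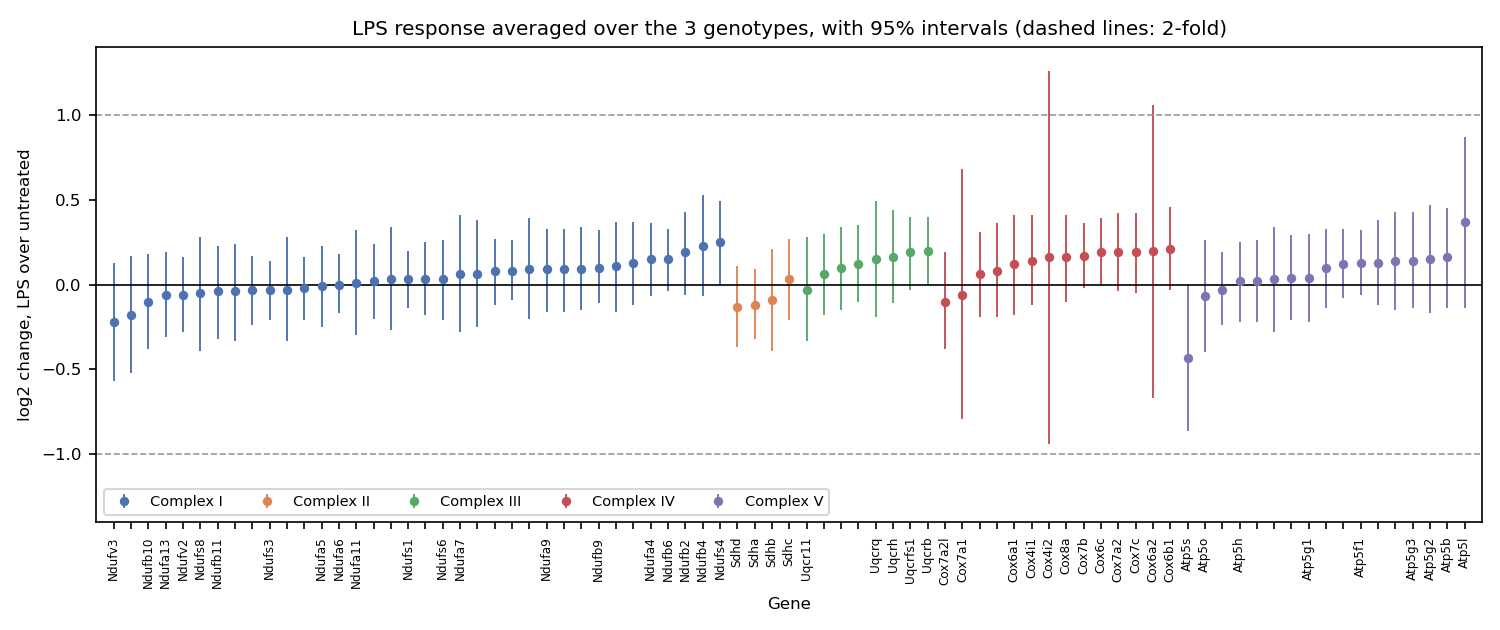
log2 change after LPS, averaged over the 3 genotypes, of each of the 79 genes (horizontal axis, ordered within complexes I to V, labelled where named in the text) with its 95% interval (edgeR). Apart from Cox4i2 and Cox6a2, every interval stays inside the dashed 2-fold lines.

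The extremes of each complex, named next, were picked for their averaged change, so agreement among their library pairs adds no separate support. The share of all tested genes with such agreement was not computed. Among the complex I genes, Ndufs4, an accessory subunit needed for a stable NADH-oxidising module, had the most positive averaged change. It stood at 64.6 and 72 CPM untreated and 77.8 and 87.8 CPM after LPS in wild type. It went from 64.2 and 52.1 to 80.1 and 57.8 CPM in the libraries labelled Ing4-/-, and from 61.6 and 64.4 to 68.2 and 78.6 CPM in those labelled Socs1-/-. All 6 LPS libraries were above the untreated library of the same genotype and number, and the averaged change was 0.25 (SE 0.109, edgeR adjusted p = 0.11, and 0.016 with the block). Leaving out the second LPS-treated library labelled Ing4-/- made it the 1 called member, with a change of 0.32 and an edgeR adjusted p of 0.046, where 28.1% of all tested genes were called. Ndufv3, a small subunit of the same module, was the lowest of the complex. It was below the matched untreated library after LPS in all 6 cases, with 45.7 and 69.5 CPM untreated and 37.7 and 60.7 CPM after LPS in wild type. The averaged change was -0.22 (SE 0.155, edgeR adjusted p = 0.3, and 0.021 with the block). Over all 36 genes of complex I the median change was 0.03, with 23 positive and 13 negative.

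The complex II genes had a median change of -0.10. Sdhc was at 0.03 (SE 0.106) and Sdhd at -0.13 (SE 0.107), with Sdha at -0.12 (SE 0.0898) and Sdhb at -0.09 (SE 0.134) between them. The edgeR adjusted p-values of these 4 genes ran from 0.36 to 0.86. Sdhd was lower after LPS in 5 of 6 matched libraries and overlapped between treatments, at 182 to 255 CPM untreated and 169 to 256 CPM after LPS.

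Of the 8 complex III genes, 7 had positive changes and the median was 0.14. Uqcrb, a subunit near the ubiquinone site, lay between 85.4 and 101 CPM untreated and between 93.0 and 119 CPM after LPS. It was higher in all 6 matched libraries, and its averaged change was 0.20 (SE 0.0884, edgeR adjusted p = 0.11, and 0.033 with the block). Uqcr11, the smallest subunit, was the only negative one at -0.03 (SE 0.135).

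Complex IV genes had a median change of 0.16, with 12 of 14 positive. Cox6b1, which faces the intermembrane space, was the most positive. It went from 224 and 259 to 258 and 287 CPM in wild type, from 214 and 178 to 266 and 196 CPM in the libraries labelled Ing4-/-, and from 209 and 219 to 237 and 263 CPM in those labelled Socs1-/-. Each LPS library was above its matched untreated one, and the averaged change was 0.21 (SE 0.108, edgeR adjusted p = 0.16, and 0.02 with the block). Cox7a2l had the most negative change of the complex at -0.10 (SE 0.126).

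Complex V genes had a median change of 0.10, with 14 of 17 positive, and held both extremes of the whole set. Atp5l went from 2.37 and 1.4 to 2.20 and 2.03 CPM in wild type and from 2.13 and 3.88 to 4.28 and 3.82 CPM in the libraries labelled Socs1-/-. Its counts were 31 to 105 in a library, and its change of 0.37 had an SE of 0.224. Atp5s lay at 3.49 to 6.42 CPM untreated and 2.66 to 4.36 CPM after LPS, with a change of -0.43 (SE 0.19, edgeR adjusted p = 0.11).

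The complexes were also set against each other within libraries, as the median over a complex's genes of log2 CPM minus each gene's mean. The median of complex II was lower after LPS in all 6 matched pairs, by 0.01 to 0.17. That of complex IV was higher in all 6, by 0.05 to 0.19, and that of complex III by 0.08 to 0.16. Complex V was also higher in all 6, by 0.00 to 0.10, and complex I in 4 of 6. The difference between complexes IV and II was larger after LPS in all 6 pairs, by 0.14 to 0.36, though its values overlapped between treatments, from -0.24 to 0.01 untreated and from -0.09 to 0.20 after LPS. These 2 complexes have the highest and lowest median averaged change (0.16 and -0.10), so this agreement among pairs adds no separate support. Complex III minus II was larger in all 6 pairs by 0.10 to 0.27, and IV minus I by 0.00 to 0.20. These medians carry no test, and complex II rests on 4 genes.

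**Figure D3:**
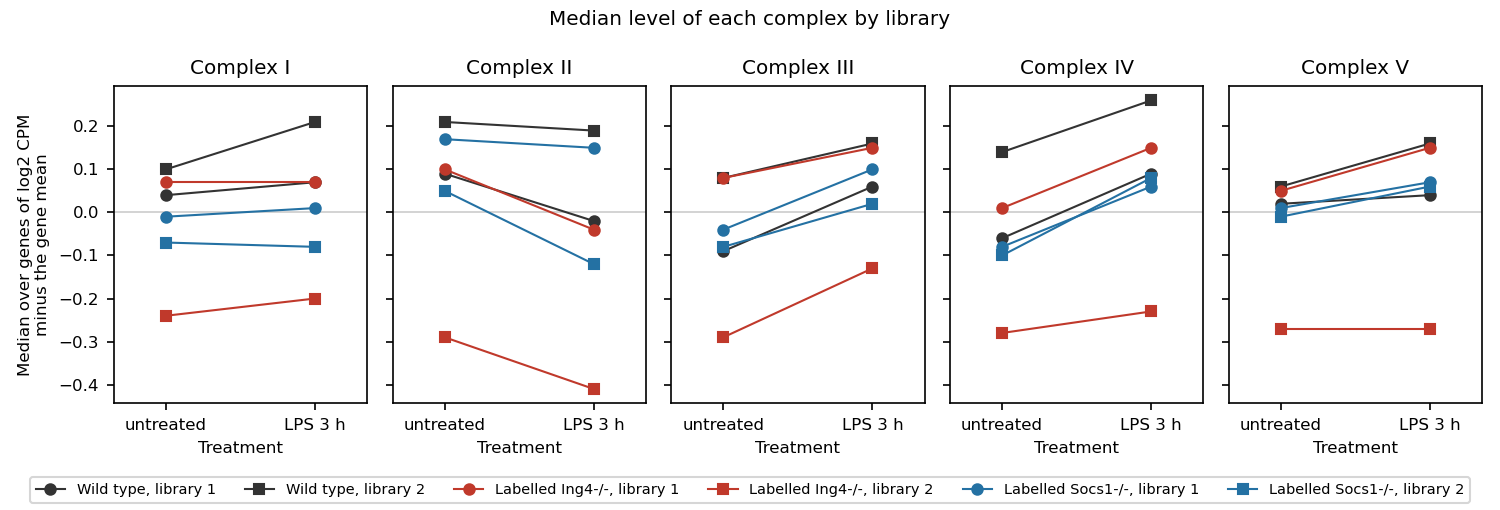
Median over the genes of each complex of log2 CPM minus the gene mean (vertical axis), untreated and after LPS, with a line for each of the 6 pairs of libraries that share genotype and number. Complex II slopes down and complexes III and IV slope up in all 6 pairs, and the second pair labelled Ing4-/- lies lowest in every complex.

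The sign of these averaged changes depends on how libraries are put on one scale. TMM factors were 1.09 to 1.17 in the untreated libraries and 0.85 to 0.89 in LPS libraries other than the one that stood apart. With library size alone and no factor, the median averaged change of all tested genes was -0.31 and that of the members -0.24, and 20 members were called by edgeR, all lower, where 47.1% of all tested genes were called, 37.6% lower and 9.54% higher. Under that scale Ndufs4 (-0.07), Uqcrb (-0.11) and Cox6b1 (-0.10) were negative, each still above the median of all tested genes.

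The second question was whether the genotypes differed. In the libraries labelled Ing4-/-, edgeR called 0 of 79 members against wild type when untreated, where 0.141% of all tested genes were called, and 0 after LPS, where 0.102% were. At an unadjusted p under 0.05 there were 3 lower members untreated and 6 after LPS, and 0 higher ones. Of all 12771 tested genes, 435 were lower and 235 higher at that bound untreated, and 537 and 369 after LPS. DESeq2 and limma-voom each called 1 member in both comparisons, Sdha. DESeq2 called 0.873% and 0.965% of all tested genes, and limma-voom 0.305% and 0.251%. edgeR with no filter on low counts also called Sdha in both, with 2.15% and 2.25% of all genes called.

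Sdha (ENSMUSG00000021577) lies on the minus strand at chr13:74322254-74350280. It stood at 349 and 342 CPM in untreated wild type and at 330 and 303 CPM in LPS-treated wild type. In the libraries labelled Ing4-/- it stood at 185 and 175 CPM untreated and at 164 and 158 CPM after LPS, and in those labelled Socs1-/- at 372, 358, 391 and 309 CPM. All 4 libraries labelled Ing4-/- were below all 8 others, which was so for 0.728% of all tested genes and for 1 of the 79 members. The difference from wild type was -0.94 untreated (SE 0.157, 95% interval -1.29 to -0.59, edgeR adjusted p = 0.078) and -0.97 after LPS (SE 0.157, 95% interval -1.33 to -0.62, edgeR adjusted p = 0.076).

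The size of the Sdha difference was steady while its adjusted p was not. Over 21 settings the log2 difference ran from -0.98 to -0.90 untreated and from -1.03 to -0.91 after LPS, and 6 and 5 of the settings called it. Its adjusted p was 0.018 and 0.011 with edgeR and no filter, 1.1e-05 and 4.3e-06 with DESeq2, and 0.05 and 0.043 with limma-voom. It was 0.035 in both comparisons with edgeR when either LPS-treated library labelled Socs1-/- was left out, although those libraries belong to neither compared group. Without the first, the filter kept 13262 genes and 0.347% and 0.302% of them were called. Leaving out single libraries of the compared groups took it as high as 0.64 and 0.51. The authors' deposited tables for these comparisons list 104 genes untreated and 117 after LPS, with absolute log2 values of at least 1.02 and 1, and none of the 79 is among them.

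The other complex II genes differed less from wild type. Sdhb had 147 and 157 CPM in untreated wild type and 164 and 116 CPM in the untreated libraries labelled Ing4-/-. Sdhc had 154 and 181 against 168 and 130 CPM, and Sdhd 242 and 255 against 236 and 182 CPM, and Sdhd alone of the 3 did not overlap. After LPS Sdhb had 138 and 159 against 144 and 106 CPM and Sdhc 153 and 188 against 165 and 136 CPM, both with overlap. Sdhd had 220 and 256 against 206 and 169 CPM, without overlap. The share of all tested genes that separate in this way, with 2 libraries a group, was not computed. In both treatments the lower Sdhd value came from the second library labelled Ing4-/-. That library was below the first for 76 of 79 members untreated and 75 after LPS. The differences of these 3 genes ran from -0.34 (Sdhd after LPS, SE 0.186, edgeR adjusted p = 0.81) to -0.12 (Sdhb untreated, SE 0.233). Within a library, the counts of Sdha divided by the summed counts of Sdhb, Sdhc and Sdhd need no scaling between libraries. This ratio was 0.325, 0.409, 0.319 and 0.384 in the libraries labelled Ing4-/-, 0.643, 0.576, 0.644 and 0.503 in wild type and 0.673, 0.673, 0.701 and 0.661 in those labelled Socs1-/-. The first set lies wholly below the other 2.

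The genes on both sides of Sdha had differences of like size. Ccdc127, whose start lies 29 bases from the 5′ end of Sdha on the opposite strand, had 52.6, 48.6, 45.6 and 42.7 CPM in wild type and 24.1, 24.6, 24.3 and 22.7 CPM in the libraries labelled Ing4-/-. Pdcd6, a calcium-binding protein gene that lies 4674 bases beyond the 3′ end of Sdha on the same strand, had 87.1, 92.5, 105 and 118 CPM in wild type and 42.9, 48.3, 50.4 and 60.1 CPM in those libraries. For both genes the libraries labelled Ing4-/- were below all 8 others, which was so for 0.728% of all tested genes. The log2 differences were -1.06 and -0.91 for Ccdc127 (edgeR adjusted p = 0.07 and 0.12) and -0.98 and -1.01 for Pdcd6 (edgeR adjusted p = 0.062 and 0.059), untreated and after LPS. A log2 difference under -0.9 in both treatments was found in 3.45% of all tested genes. Of the other 14 tested genes with a 5′ end within 500 kb, 0 had all 4 libraries labelled Ing4-/- below the other 8. At a share of 0.728% of all tested genes, 0 is near what any 14 genes would give. The untreated differences of these 14 ran from -0.70 to 0.74. Among these 14, Exoc3 (72.3 CPM in the first untreated wild-type library) was at 0.24 (SE 0.137) on one side. Erap1 (135 CPM in that library) was at -0.08 (SE 0.148) on the other. Those of the 14 that lie between them and Sdha had at most 16.5 CPM in any library. The most abundant of those, Gm46430, was at 0.40 (SE 0.217) untreated. These neighbours were looked at after the Sdha values were seen, and no DNA was measured.

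**Figure D4:**
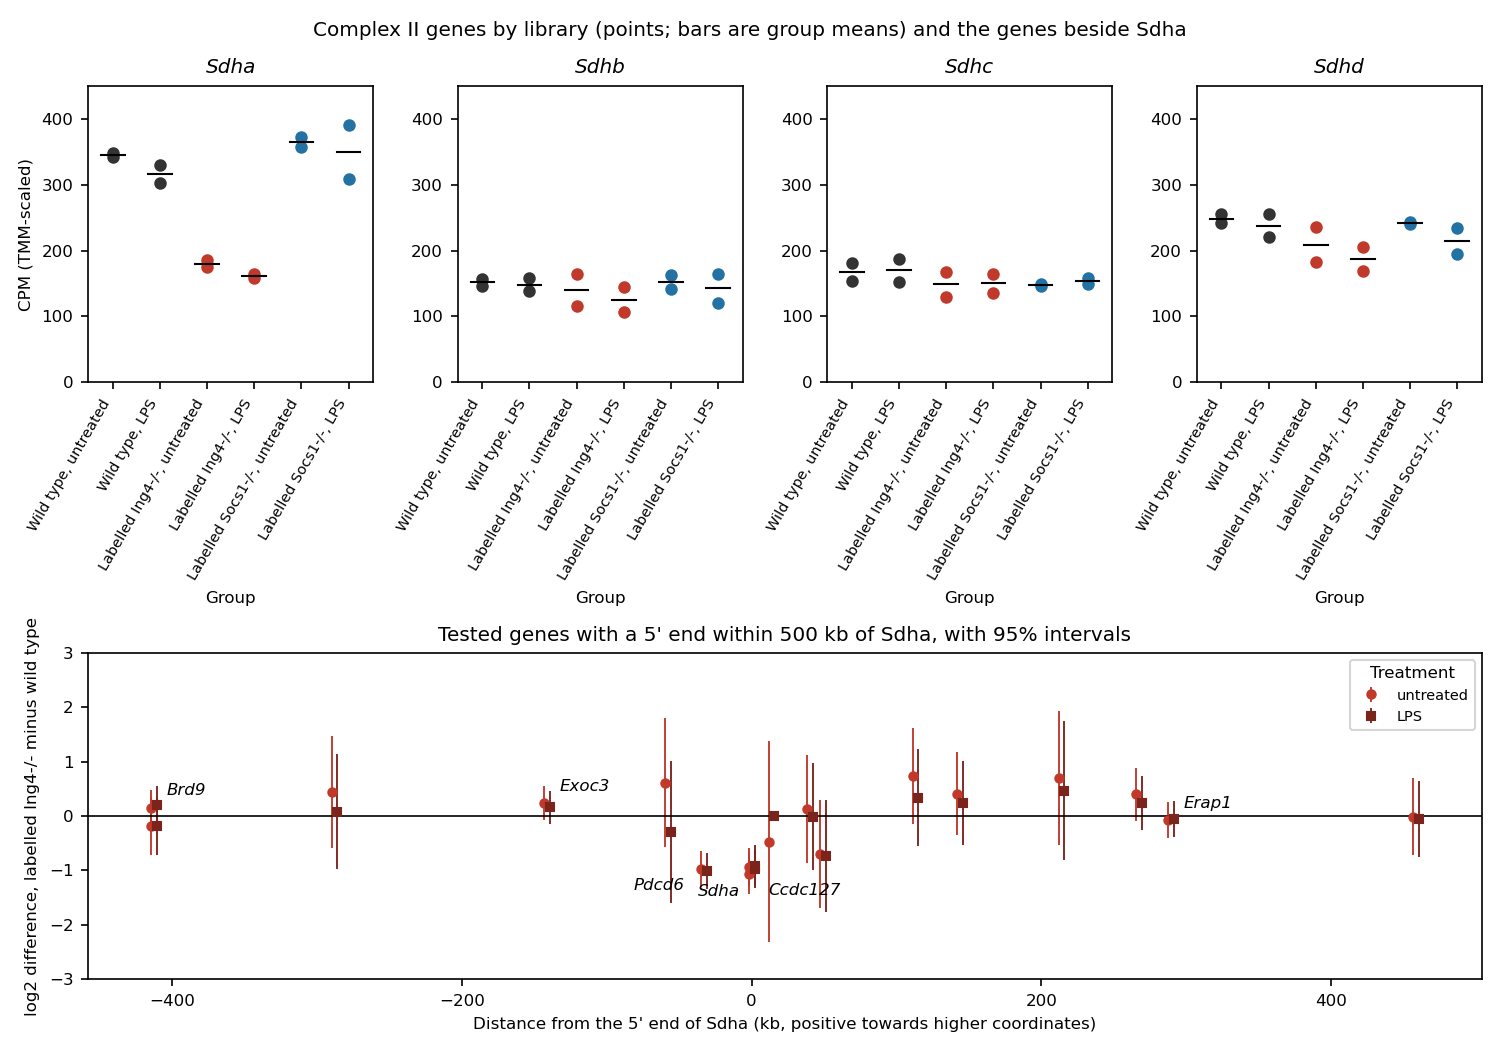
Top, CPM of the 4 complex II genes in each group, with points for the 2 libraries and a bar for their mean. Bottom, log2 difference of the libraries labelled Ing4-/- from wild type, with 95% intervals, for tested genes with a 5′ end within 500 kb of that of Sdha (untreated circles, LPS squares); Pdcd6, Sdha and Ccdc127 sit between -1.06 and -0.91 and Lrrc14b has no interval after LPS.

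As a group the members stood slightly below wild type in the libraries labelled Ing4-/-. The median difference was -0.14 untreated and -0.18 after LPS, with 67 and 70 of 79 negative, against 0.01 and 0.02 for all tested genes. This rests on 1 of the 2 libraries in each treatment. The second library was below the first for 76 of 79 members untreated and 75 after LPS, by a median of 0.32 in both, whereas the median first-minus-second difference over all tested genes was -0.01 and -0.04. Leaving out the second untreated library brought the untreated median to 0.01, and leaving out the second LPS library brought the LPS median to -0.01. In those second libraries 2.11% and 2.09% of counts came from the mitochondrial genome, against 0.548% to 1.08% in the other 10. The part of this in the members' values was not tested.

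In the libraries labelled Socs1-/-, edgeR called 0 of 79 members untreated, where 0.047% of all tested genes were called, and 0 after LPS, where 0.0626% were. At an unadjusted p under 0.05 there were 2 lower members untreated, and 4 lower and 1 higher (Atp5l) after LPS. Of all 12771 tested genes, 460 were lower and 198 higher at that bound untreated, and 636 and 720 after LPS. DESeq2 and limma-voom called 0 members, and the shares of all tested genes they called here are not given. The median difference was -0.07 untreated and -0.11 after LPS, against 0.01 and 0.02 for all tested genes. Of the 79 members 61 and 68 were negative, beside 6219 and 6198 of all 12771 tested genes. Without the first and the second untreated wild-type library the untreated median was -0.14 and -0.03, and without the first and the second LPS-treated wild-type library the LPS median was -0.18 and -0.02. Without the first LPS-treated library labelled Socs1-/- edgeR again called 0 members after LPS and the median was -0.16. Sdha was at 0.08 (95% interval -0.27 to 0.43) and 0.14 (95% interval -0.21 to 0.50). With library size alone the medians were 0.00 and 0.01, beside 0.08 and 0.13 for all tested genes. On that scale the members' median thus lay near 0 and still under that of all tested genes.

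Some members separated wild type from both labels without passing the test. All 4 libraries labelled Ing4-/- lay below all 4 wild-type libraries for 8 of 79 members, where 4.39% of all tested genes did, and all 4 labelled Socs1-/- for 11, where 4.77% did. All 4 lay above wild type for 0 members under the Ing4-/- label, where 2.66% of all tested genes did, and under the Socs1-/- label for Atp5g1 and Ndufs1, where 3.03% did. Both counts use the same wild-type libraries. The 8 were Cox7a2l, Ndufa11, Ndufa5, Ndufa7, Ndufb9, Ndufs8, Ndufv2 and Sdha. The 11 were Cox7a2l, Ndufa11, Ndufa5, Ndufa6, Ndufa7, Ndufa9, Ndufb11, Ndufb9, Ndufs6, Ndufs8 and Ndufv2. Those described next were chosen after their values were seen.

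Ndufv2, an iron-sulphur subunit at the NADH-oxidising tip of complex I, had 157, 182, 165 and 184 CPM in wild type, 135, 113, 128 and 100 CPM in the libraries labelled Ing4-/-, and 140, 134, 131 and 125 CPM in those labelled Socs1-/-. Its differences from wild type were -0.46 and -0.61 under the Ing4-/- label (edgeR adjusted p = 0.75 and 0.4) and -0.31 and -0.44 under the Socs1-/- label. Cox7a2l had 84.6, 121, 88.0 and 114 CPM in wild type, 77.3, 66.6, 68.7 and 65.5 CPM under the Ing4-/- label, and 76.7, 67.1, 72.1 and 55.6 CPM under the Socs1-/- label. For Cox7a2l it was the second wild-type library of each treatment that stood highest. Its differences were -0.51 and -0.59 under the Ing4-/- label (edgeR adjusted p = 0.91 and 0.63) and -0.52 and -0.66 under the Socs1-/- label (edgeR adjusted p = 0.94 and 0.36).

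Some of these genes had position in common. Ndufv2, Cox7a2l, Ndufa11 and Ndufa7 all lie on chromosome 17, with Ndufb10 and Ndufv3, and these 6 had median differences of -0.47 and -0.58 under the Ing4-/- label and -0.41 and -0.50 under the Socs1-/- label, untreated and after LPS. The other 73 members had -0.13 and -0.17, and -0.06 and -0.10. Chromosome 17 as a whole, with the 6 members included, lay in the same direction. Over its 664 tested genes the median differences were -0.17, -0.18, -0.22 and -0.19 in the same order, the lowest of the 20 chromosomes in each comparison, while chromosome 12 was next at -0.07 to -0.05. By library, the median of those 664 genes relative to their own means was 0.07, 0.20, 0.07 and 0.16 in wild type and between -0.13 and -0.02 in the other 8 libraries, so the second wild-type library of each treatment stood furthest out. The part of chromosome 17 in the members' values was not tested.

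**Figure D5:**
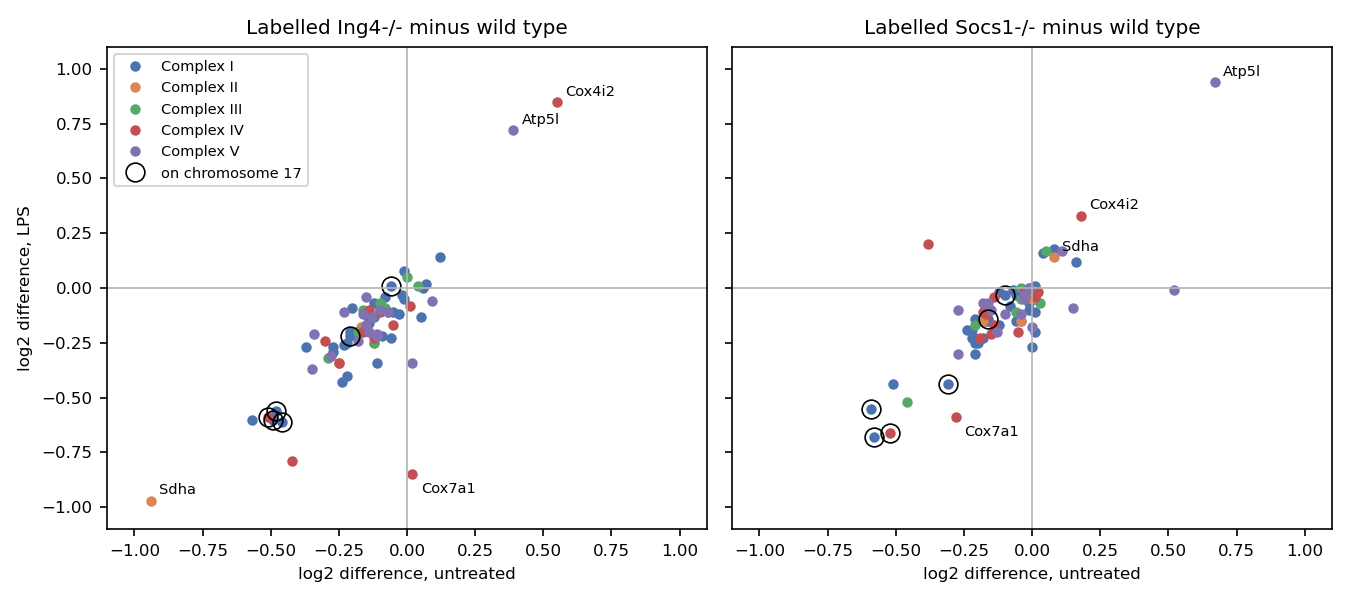
log2 difference from wild type of each of the 79 genes, untreated (horizontal) and after LPS (vertical), for the libraries labelled Ing4-/- (left) and Socs1-/- (right); both panels use the same wild-type libraries. Sdha lies apart at -0.94 and -0.97 in the left panel and near 0 in the right, and the ringed chromosome 17 genes Cox7a2l, Ndufa11, Ndufa7 and Ndufv2 lie at -0.31 or lower on both axes of both panels.

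The LPS responses themselves were not found to differ between genotypes. For the difference of responses, edgeR called 0 members and 0% of all tested genes for either label, with 0 members at an unadjusted p under 0.05. Of all tested genes, 33 were higher and 20 lower at that bound under the Ing4-/- label, and 62 and 40 under the Socs1-/- label. DESeq2 and limma-voom called 0 members, and their shares over all tested genes are not given here. The median difference of the response from that of wild type was -0.03 under the Ing4-/- label and -0.01 under the Socs1-/- label. The latter was -0.06, with 0 members called by edgeR, without the first LPS-treated library labelled Socs1-/-. The precision was limited: the 95% interval lay inside 1.5-fold for 18 and 12 of the 79 members and inside 2-fold for 74 in both.

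Other genes of the pathway give the setting of the members' averaged LPS response, in which edgeR called 33.2% of all 12771 tested genes, 2292 higher and 1945 lower. At an unadjusted p under 0.05, 2946 of all tested genes were higher and 2745 lower. Of the 13 subunits encoded by the mitochondrial genome 7 were tested and 0 were called by edgeR (0 at an unadjusted p under 0.05, and 0 by DESeq2 or limma-voom), with a median change of 0.24 and a median SE of 0.35. The other 6, among them mt-Co2, mt-Co3 and mt-Atp6, are listed at 0 in every library although mt-Co1 had at least 37282 counts, so they were not read as measured. mt-Co1, the catalytic core of complex IV, had 7511 and 8996 CPM in the second libraries labelled Ing4-/- and 1626 to 3682 CPM elsewhere. Of Ndufab1, Cyc1 and Cycs, carriers and subunits the naming rule leaves out, only Cycs, cytochrome c, was called, at 0.39 (SE 0.12, edgeR adjusted p = 0.034), and this call was lost in 12 of 19 alternatives.

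Assembly factors build the complexes without staying in them. Among 24 tested for complex IV, 5 rose and 1 fell, a smaller share than the 33.2% of all tested genes that were called, and the calls of Cox11 and Sco2 among the 5 were lost in 13 and 10 of 19 alternatives. Cox17, the copper chaperone, stood at 13.2 and 11.4 CPM untreated and 24 and 26.2 CPM after LPS in wild type. It was higher after LPS in every genotype without overlap and rose by 0.99 (SE 0.128, edgeR adjusted p = 0.001). The heme lyase Hccs rose by 0.58 and Cox18, which inserts part of a core subunit into the membrane, by 0.54, and the translational activator Taco1 fell by 0.60. Of 10 factors for complexes II and III, 1 rose and 2 fell, near the share of 33.2% of all tested genes. Ttc19, which acts in complex III, went from 14.7 and 13.3 to 32.2 and 23.5 CPM in wild type and rose by 1.07 (SE 0.16, edgeR adjusted p = 0.0018), while Uqcc3 fell by 0.61 and Bcs1l by 0.49. Among 16 complex I factors, only Tmem126b was called and fell by 0.51. None of 5 complex V factors was called by edgeR or limma-voom, 3 being lower at an unadjusted p under 0.05, and DESeq2 called 1.

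Regulators of mitochondrial biogenesis went both ways, with 4 of 17 higher and 4 lower, beside 33.2% of all tested genes called. The call of Pprc1, 1 of the 4 higher, was lost in 6 of 19 alternatives. Gabpb1 and Gabpa, the 2 subunits of an ETS factor that binds promoters of many of these genes, rose by 0.84 (SE 0.0907, edgeR adjusted p = 0.00044) and 0.47, and Gabpb1 was called in each of the 3 single responses as well. Myc rose by 4.38 (SE 0.498). Nrip1, a corepressor of mitochondrial genes, fell by 0.64. Of 20 tricarboxylic acid cycle and linked enzymes, Dld rose by 0.39 and Pdk2, a kinase that inhibits pyruvate dehydrogenase, fell by 1.66. Of 11 coenzyme Q genes, Coq3 rose by 0.32, and Coq8a and Coq9 fell by 1.34 and 0.34, calls that were lost in 12, 7 and 9 of 19 alternatives. Both lists held a smaller share of called genes than the 33.2% of all tested genes. None of 7 uncoupling proteins and carriers was called by edgeR, with 0 at an unadjusted p under 0.05 and 0 by DESeq2 or limma-voom. Of the 120 tested genes of these lists, 0 were called by edgeR, DESeq2 or limma-voom in any comparison of a label with wild type, and 2 to 9 had an unadjusted p under 0.05 in edgeR.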

How the data were processed

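Poly(A)-selected RNA of 12 RAW 264.7 libraries was read as single 75-base reads after stranded library preparation, per the labels' protocols. The authors deposited whole-number read counts per gene; the submitters' processing notes name FastQC, HISAT, StringTie, HTSeq and DESeq2 and the build GRCh38, whereas the gene identifiers are mouse and the positions in the authors' deposited tables of comparisons equal those of GRCm38 for nearly all genes. Those tables give log2 fold changes and adjusted p-values computed by the authors, per the file headers. Positions and transcript lengths came from GENCODE M21 (GRCm38), and symbols from the reference table of gene names, with those of GENCODE where it had none.

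From the counts, edgeR 4.0.16 (R 4.3.3) with TMM scaling, filterByExpr and 1 robust quasi-likelihood model of 6 groups gave 10 comparisons over 12771 genes, and all 79 members passed that filter. Standard errors were the log2 change over the square root of F. CPM are TMM-scaled. Group sizes of 2 and totals of 17250815 to 24377950 counts set the precision. DESeq2 1.42.0, limma-voom 3.58.1 and other scalings, filters and subsets were alternatives. The scripts were tested on simulated data. Genes named by value were, by rule, members called in any comparison, the most positive and negative averaged LPS change and the highest and lowest level per length in each complex, paralog sets, Sdha to Sdhd, up to 4 called genes of each pathway list and the targeted genes; exceptions are marked. The members and lists were chosen with earlier results of these data known.

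Within a genotype, the first-minus-second differences of untreated and LPS libraries correlated across genes with r of 0.447 (wild type), 0.601 (Ing4-/-) and 0.565 (Socs1-/-), against -0.129 to 0.156 between genotypes, so the numbers pair untreated with LPS libraries and not the genotypes; this pairing comes from the data, not from the labels.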

Additional observations from a re-analysis of the deposited data

How the results depend on the processing

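Library size alone moved the members' median LPS change to -0.25 in wild type, -0.28 under the Ing4-/- label, -0.23 under the Socs1-/- label and -0.24 averaged. It called 20 members in the averaged response, beside 47.1% of all tested genes. Upper-quartile scaling called 1 there (Atp5s), beside 35.9% of all tested genes, and the replicate block 11, beside 51.7%. The block changed no other count of called members. Sdha alone made 1 call under the Ing4-/- label with no filter, limma-voom and DESeq2 in both treatments, and untreated with only the groups compared. The share of all genes called in that last fit is not given here. Signs reversed in the averaged response for Ndufs4 (-0.07), Uqcrb (-0.11) and Cox6b1 (-0.10) with library size alone, for Sdhc with upper-quartile scaling (-0.10), library size alone (-0.28) or no filter (-0.01), and on leaving out single libraries for Sdhc (-0.03 to 0.10 in all, -0.03 to -0.01 where reversed) and Uqcr11 (-0.12 to 0.08 in all, 0.00 to 0.08 where reversed). Leaving out each library gave 0 to 1 called members in the averaged response and in both comparisons of the Ing4-/- label with wild type. The members' median then ran from 0.00 to 0.14 for the averaged response, from -0.04 to 0.15 in wild type, from 0.02 to 0.10 under the Socs1-/- label and from -0.11 to 0.23 under the Ing4-/- label, from -0.33 to 0.01 and from -0.37 to -0.01 for that label against wild type untreated and after LPS, from -0.14 to -0.03 and from -0.18 to -0.02 for the Socs1-/- label, and from -0.21 to 0.13 and from -0.09 to 0.07 for the differences of response of the 2 labels. Of the pathway genes called higher in the averaged response, Cox17, Ttc19, Gabpb1 and Myc kept their call in all 19 alternatives. Of those called lower, Pdk2, Nrip1, Polg2, Polrmt, Twnk, Taco1 and Uqcc3 did so. Cox11 lost its call in 13, Cycs and Coq3 in 12, Sco2 in 10, Coq9 in 9, Coq8a in 7, Pprc1 in 6, and the others in at most 3. Fitting only the groups compared gave no value for the averaged response. The causes were not tested. Library size alone and the principal transcript length were chosen after seeing the data. With 2 libraries a group, a group left with 1 library borrows its spread from the others, and members with few counts (Cox4i2, Cox6a2, Cox7a1, Atp5l, Atp5s) are limited by depth.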
